A study of Mus musculus with 2 samples.

Results

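The alveolar type 1 cell genes described here are 10 genes known as markers of the flat cells that line the gas exchange surface of the lung: Ager, Hopx, Clic5, Pdpn, Rtkn2, Akap5, Gprc5a, Emp2, Spock2 and Vegfa. They were chosen as known markers, with earlier results of these data known. Every probe set that the array annotation assigned to exactly 1 of them was taken. This gave 21 probe sets of 10 genes, among 18193 genes on the array. The samples were lung epithelium of ICR mouse fetuses at embryonic day 11, grown in Matrigel, a basement membrane gel. For the first 4 days the medium held FGF10, a growth factor for lung buds, and CHIR99021, which inhibits the kinase GSK3 and thereby raises beta-catenin signalling. The tissue was then broken up, embedded again and grown for 2 days in medium with FGF10, and CHIR99021 was either present or left out. Both groups had therefore met the inhibitor, and the comparison is of its presence with its withdrawal. There was 1 array per group and no replicate, so no error between cultures, no test and no p-value can be given, and effects of the single culture or array cannot be told apart from those of CHIR99021. Whether epithelium of several fetuses was pooled is not given in the sources used here.

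Type 1 cells arise from the distal tips of the branching lung epithelium, which also give rise to the surfactant-making type 2 cells. They spread into thin sheets, sit against capillaries and keep the barrier between air and blood. In the adult lung, Wnt signalling is known to maintain part of the type 2 cells, and its loss is known to accompany their turn towards type 1 cells. Few type 1 markers belong to that cell alone. Pdpn is also made by mesothelium and lymphatic endothelium, Hopx by some progenitors, and Vegfa by many epithelia. In bulk RNA, fewer cells of a type and less RNA per cell cannot be told apart.

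Start sites are shown for the 3 genes with the lowest ratio of signal with to signal without CHIR99021. The ratio is that of the brightest probe set on the authors' scale. The third place depends on the scaling: after loess, Emp2 was at a log2 ratio of -1.89 and Vegfa at -1.80. The sequences are the 250 bases before the annotated start, 5′ to 3′ on the strand of the gene, from RefSeq on GRCm38.p6. For Vegfa the outer of its annotated starts was used. Capitals mark matches on either strand to any of 7 motifs, listed after the sequences.
Clic5, chr17:44188322-44188571, strand plus: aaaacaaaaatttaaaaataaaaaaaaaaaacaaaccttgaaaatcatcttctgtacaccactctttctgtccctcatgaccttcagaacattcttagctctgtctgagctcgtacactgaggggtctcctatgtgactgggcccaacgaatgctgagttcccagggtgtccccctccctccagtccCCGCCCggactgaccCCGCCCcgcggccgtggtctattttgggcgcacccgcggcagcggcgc
Pdpn, chr4:143299565-143299814, strand minus: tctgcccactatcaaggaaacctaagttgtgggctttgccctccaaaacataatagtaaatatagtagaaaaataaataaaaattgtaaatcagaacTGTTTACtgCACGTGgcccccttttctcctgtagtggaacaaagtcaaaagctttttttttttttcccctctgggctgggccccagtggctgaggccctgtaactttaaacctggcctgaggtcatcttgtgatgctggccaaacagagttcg
Vegfa, chr17:46032378-46032627, strand minus: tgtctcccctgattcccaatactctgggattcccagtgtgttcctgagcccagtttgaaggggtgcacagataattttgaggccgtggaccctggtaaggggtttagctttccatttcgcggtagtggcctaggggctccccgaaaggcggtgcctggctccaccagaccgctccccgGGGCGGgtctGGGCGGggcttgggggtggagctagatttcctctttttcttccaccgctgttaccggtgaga

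The motifs searched were ATCAAAG for TCF/LEF, the DNA-binding partners of beta-catenin, CATTCC for TEAD, CAAGTG for NKX2-1, ACGTG as the core of hypoxia response elements, TGANTCA for AP-1, TGTTTAC for forkhead factors and GGGCGG for SP and KLF factors. Both strands were read, over 250 bases before and 50 after each start, and matches inside CACGTG count on both strands. RefSeq windows were matched for 8 of the 10 genes, with 10 windows in all. The TCF/LEF motif was in 0 of the 10 windows and in 3.73% of 32851 windows of all genes. Matches to the TEAD and AP-1 motifs were also in 0 of the 10, against 14.7% and 7.81% of all windows. ACGTG was in 5 windows, of Hopx, Pdpn, Spock2 and Vegfa, against 19.6% of all windows. In Pdpn the match was part of a CACGTG that began 144 bases before the start, after a forkhead match at 153 bases, a motif in 3.65% of all windows. In Vegfa it was at the inner start, whose sequence is not shown. GGGCGG was in 6 windows, of Akap5, Clic5, Emp2, Pdpn and Vegfa, against 35.7% of all, and CAAGTG was in 2, of Hopx and Spock2, against 13.6%. GGGCGG began 63 and 48 bases before the start in Clic5 and 72 and 62 bases before the outer start of Vegfa, while its matches in Pdpn lay after the start. These are matches of letters in a short window and say nothing of binding.

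Of the 10 genes, 7 had a signal at least 2-fold lower with CHIR99021 and 0 had one at least 2-fold higher. Over all 12917 measured genes the shares were 18.4% lower and 1.9% higher. A gene was represented by its brightest probe set and counted as measured when that was above a background floor on at least 1 array. The floor was a signal of 19.2 without and 12.7 with CHIR99021, set from probe sets of olfactory and vomeronasal receptor genes. Clic5, Pdpn, Vegfa, Emp2, Gprc5a, Hopx and Ager made up the lower group. Akap5, Rtkn2 and Spock2 were within 2-fold by the same rule. The median log2 ratio, with over without CHIR99021, was -1.64 for the 10 genes and -0.42 for all measured genes. At 4-fold, 4 of the genes were lower (Clic5, Pdpn, Vegfa and Emp2), against 3.35% of all. With 7 of 10 below the 2-fold line and 18.4% of all genes there, the list held a larger share of lower genes than the array as a whole. The list was chosen with earlier results of these arrays known, so this share is no independent evidence of a direction. Since the median of all genes was itself below 0, the values after other scalings are given further on.

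At the level of probe sets, 17 of 21 were at least 2-fold lower with CHIR99021, against 24.2% of 23972 measured probe sets, and 15 of the 17 were above the floor on both arrays. Probe sets of 1 gene share a transcript and are not replicates. Of the 7 genes with 2 or more measured probe sets, 5 had every probe set at least 2-fold lower: Ager, Clic5, Emp2, Hopx and Vegfa. Among 6192 measured genes with 2 or more, 9.43% did.

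**Figure D1:**
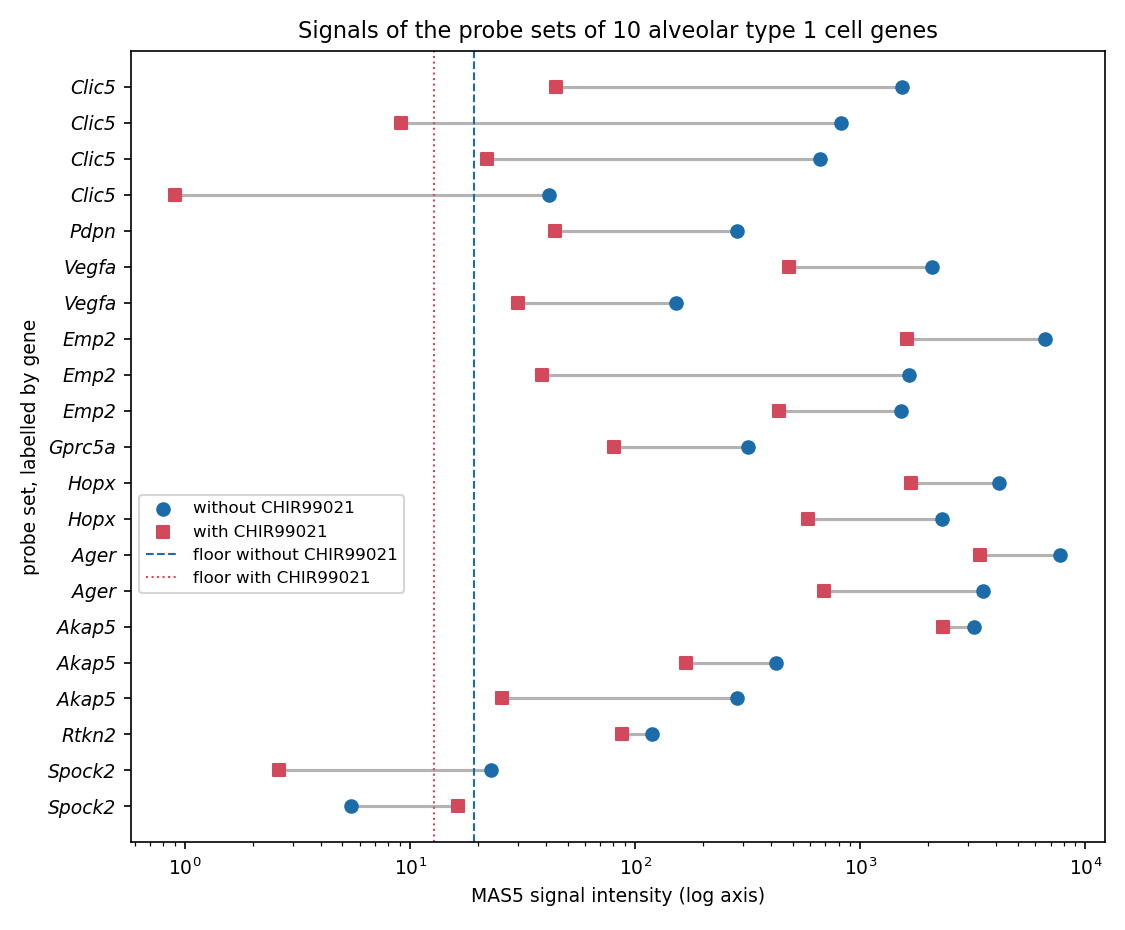
Signals of all 21 probe sets on a log axis, 1 row per probe set labelled by its gene, with circles for the array without and squares for the array with CHIR99021. Dashed and dotted lines mark the floors of 19.2 and 12.7, and in 20 of 21 rows the square lies left of the circle, the exception being 1 probe set of Spock2.

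The membrane and cytoskeleton proteins of the thin cell body were read first. Clic5 encodes a chloride intracellular channel protein that also ties the plasma membrane to actin through ezrin-type linkers. Its brightest probe set had 1536 in the culture without CHIR99021 against 44.7 in the other, 34.4-fold lower. The next had 818 and 9.06, the latter below the floor, which makes it at least 64.3-fold lower, and the third had 661 and 22.0, or 30.0-fold. A dim probe set had 41.5 without and was below the floor with CHIR99021, at least 3.26-fold lower. All 4 were thus lower, and 13 of 12917 genes had a lower ratio than the brightest one of Clic5, 0.101% of them.

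Pdpn encodes podoplanin, a mucin-like glycoprotein of the apical membrane. Its only probe set had 284 without and 43.9 with CHIR99021, a 6.47-fold lower signal. A lower ratio was found for 1.37% of measured genes. Emp2 encodes a tetraspan protein of the membrane found in type 1 cells. The brightest of its probe sets read 6584 without CHIR99021 and 1605 with it, 4.10-fold lower, and another 1519 and 436, or 3.48-fold. The third had 1645 without and 38.5 with CHIR99021, 42.7-fold lower. The direction was the same in all 3, but the size differed by a range of 3.62 on the log2 scale, so no single fold describes Emp2. Gprc5a encodes an orphan receptor induced by retinoic acid. Its 1 probe set had 316 without and 80.2 with CHIR99021, 3.94-fold lower.

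Ager and Hopx are the markers most used to find type 1 cells. Ager encodes RAGE, a receptor of the basal membrane that binds glycated and S100 proteins. The brighter of its probe sets read 7750 without CHIR99021 and 3393 with it, 2.28-fold lower, and the other 3508 and 691, or 5.08-fold. Hopx encodes a small homeodomain protein that does not itself bind DNA. Its probe sets had 4135 without and 1682 with CHIR99021, 2.46-fold lower, and 2315 and 584, or 3.97-fold. Both genes remained far above the floor on both arrays. Both lay close to the 2-fold line by their brighter probe set: a lower ratio was found for 13.1% of measured genes in the case of Ager and 10.6% in that of Hopx.

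Vegfa is the signal from type 1 cells to the capillaries, an endothelial growth factor. Its probe sets had 2088 without and 481 with CHIR99021, 4.34-fold lower, and 151 and 30.1, or 5.03-fold. Over all measured probe sets, these agreed more closely than those of any other of the genes with 2 or more, with a range of 0.21 on the log2 scale. The Clic5 probe sets that cleared both floors, at log2 ratios of -5.10 and -4.91, lay as close together. Where a gene on the array had several probe sets that cleared both floors, the median range was 0.60.

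The other 3 genes were within 2-fold by their brightest probe set. Akap5 encodes an anchor that holds protein kinase A and calcineurin at the membrane. Its brightest probe set had 3194 without and 2334 with CHIR99021, only 1.37-fold lower, while dimmer ones had 420 and 168, or 2.50-fold, and 285 and 25.6, or 11.1-fold. The call for Akap5 therefore rests on which probe set is read. The single probe set for Rtkn2 read 118 without CHIR99021 against 87.6 with it, and 49.3% of measured genes had a lower ratio. Spock2 encodes a secreted proteoglycan of the matrix. One of its probe sets read 22.8 without CHIR99021 and 2.61 with it, the other 5.47 and 16.3, each above the floor on 1 array only and by little. They went in opposite directions near background, so no fold is given for Spock2. Without it, 7 of 9 genes were lower and the median log2 ratio was -1.98.

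Within several genes the brighter probe set showed the smaller difference, as in Ager, Hopx, Vegfa and Akap5. In 3047 genes with 2 probe sets that cleared both floors, the brighter one had the higher ratio in 64.3%. The array with CHIR99021 also had the larger ratio of 3' to 5' signal, at 3.18 against 1.29 for beta-actin and 1.62 against 0.737 for Gapdh. The positions of the member probe sets along their transcripts were not used, and the part of this 3' shift in their ratios was not tested.

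**Figure D2:**
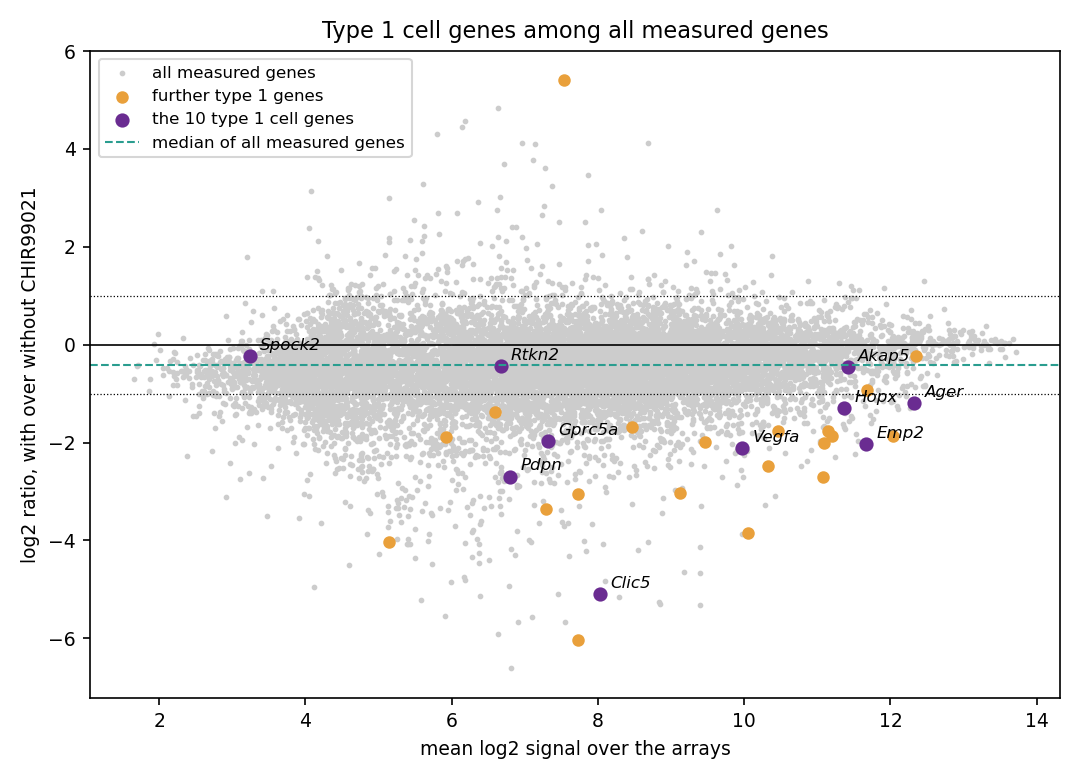
Log2 ratio, with over without CHIR99021, against mean log2 signal for all 12917 measured genes (grey), 20 further type 1 genes (orange) and the 10 type 1 cell genes (purple, named). The dashed line is the median of all genes at -0.42 and the dotted lines mark 2-fold; 7 of the 10 lie below the lower one, while Rtkn2 and Akap5 lie near the dashed line and Spock2 rests on values near the floor.

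The scaling of the arrays moved the count from 7 to 5 at most. After loess, 7 of the 10 genes were at least 2-fold lower, against 7.29% of all measured genes, and after median centring 5 were, against 7.44%. The median log2 ratio of all measured genes was then 0.04 and 0.05, and that of the 10 genes -1.28 and -1.16. Clic5, Pdpn, Vegfa, Emp2 and Gprc5a were past 2-fold under all 4 other scalings. Hopx and Ager were so under 3 of them, and after median centring had log2 ratios of -0.82 and -0.71. After loess, 5.95% of measured genes had a lower ratio than Ager and 5.89% a lower one than Hopx. Rtkn2 changed sign, from -0.43 on the authors' scale to 0.12 after loess, 0.22 after quantile normalization and 0.04 after median centring. Akap5 was at 0.02 after median centring and below 0 under the others, and Spock2 had values on both sides of 0.

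**Figure D3:**
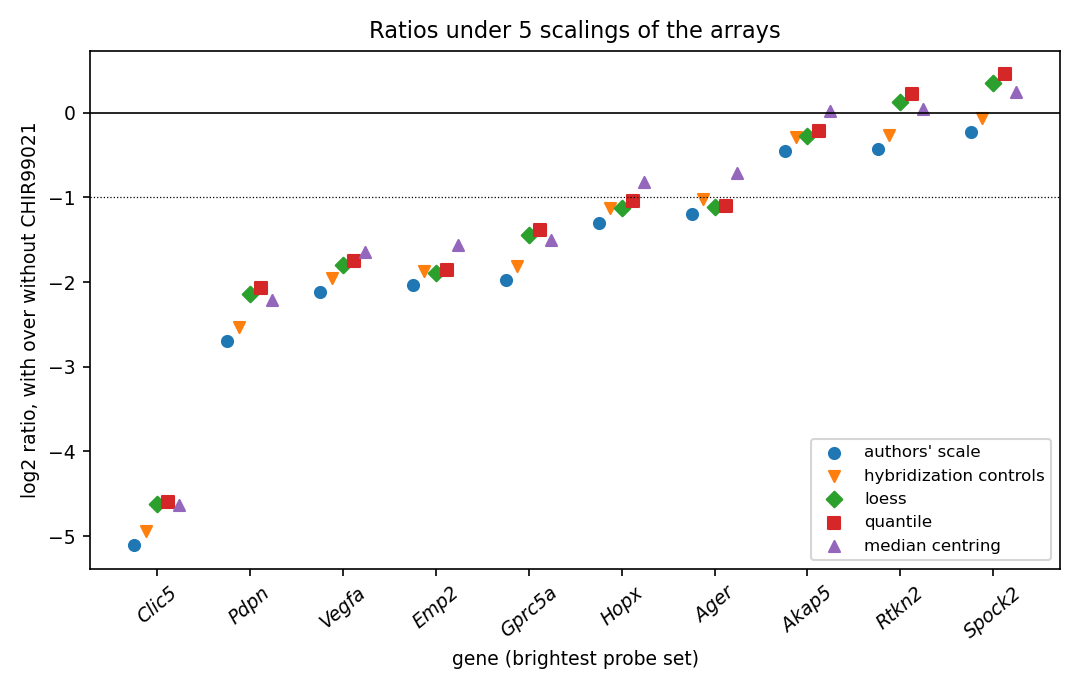
Log2 ratio of the brightest probe set of each gene on the authors' scale and after 4 other scalings of the arrays, ordered by the ratio on the authors' scale. Clic5, Pdpn, Vegfa, Emp2 and Gprc5a stay below the dotted 2-fold line at every scaling, Hopx and Ager cross it after median centring, and Rtkn2, Spock2 and, by 0.02 after median centring, Akap5 cross 0.

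A second list of 20 genes linked to type 1 cells, none of them among the 10, gave counts in the same direction: 17 were at least 2-fold lower and 1 higher, against 18.4% and 1.9% of all measured genes, with a median log2 ratio of -1.93. After loess 16 were lower, against 7.29% of all, and 1 higher. This list, too, was drawn up with earlier results of these arrays known, and is no independent evidence of a direction. Caveolae, the membrane pits that fill type 1 cells, were represented by Cav1 with 3030 without and 547 with CHIR99021, Cav2 with 4497 and 1237, and Cavin1 with 1410 and 355. Aqp5, a water channel, had 208 without and was below the floor with CHIR99021. Sec14l3, a lipid-binding protein, was lowest of the list, with 1717 without and 26.3 with CHIR99021. Its 2 other probe sets had log2 ratios of -6.04 and at most -6.64, the latter below the floor with CHIR99021. Lmo7 and Tspan8 were within 2-fold by their brightest probe set, but the other Lmo7 probe set had a log2 ratio of -2.40. The higher gene was Igfbp2, a binding protein for insulin-like growth factors, with 28.5 without and 1209 with CHIR99021. Its ratio was the highest of all measured genes on the authors' scale. Cldn18, a claudin of alveolar tight junctions, had 4360 and 1087, and S100a6 5548 and 846.

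Of 19 measured type 2 cell genes, 11 were at least 2-fold lower and 0 higher, against 18.4% and 1.9% of all measured genes, with a median log2 ratio of -1.10. After loess 8 were lower, against 7.29% of all, and after median centring 8 of the 19 and 5 of the 10 type 1 genes were, against 7.44%. The largest differences were those of the cytokine gene Il33, with 609 without and 20.0 with CHIR99021, the protease gene Napsa, with 1456 and 51.1, the surfactant gene Sftpd, with 1602 and 87.8, and the phosphate transporter gene Slc34a2, with 2142 and 218. Sftpc, the surfactant protein used as the marker of distal epithelium, had 8808 without and 8500 with CHIR99021, and Sftpb had 6828 and 3312. With 1 array per group the difference between the type 1 and type 2 counts was not tested.

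Vegfa acts through KDR and FLT1 with neuropilins as coreceptors. Kdr had 32.0 without and 23.5 with CHIR99021, and Flt1 23.4 without and a value below the floor with it, both close to the floor. Nrp2 had 548 without and 128 with CHIR99021, and its 4 probe sets had log2 ratios from -2.10 to -1.46. Nrp1 had 534 and 1099, a log2 ratio of 1.04, with its other probe sets between -0.04 and 0.81. Vegfb had 74.1 and 99.9, and Vegfd, another ligand of the family, 162 and 45.0.

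Genes of the hypoxia response, which controls Vegfa in many cells, were read as a list of regulators and responding genes. Of 14 measured, 4 were at least 2-fold lower and 0 higher, with a median log2 ratio of -0.50. Epas1, which encodes HIF-2 alpha, had 517 without and 107 with CHIR99021, Ndrg1 277 and 41.3, and P4ha1, a collagen prolyl hydroxylase, 265 and 80.9. Hif1a had 3285 and 3127, and Slc2a1, the glucose transporter, 1496 and 1016. Other measured probe sets of Hif1a had log2 ratios of -0.03 and at most -2.93. The latter had 97.2 without and was below the floor with CHIR99021. Over all measured genes 18.4% were lower and 1.9% higher.

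Among RAGE ligands and adaptors, S100a8, S100a9 and S100b were below the floor on both arrays. S100a4 had 97.3 without and 19.2 with CHIR99021, and Diaph1, the formin that binds the tail of RAGE, 957 and 285. Partners of podoplanin and CLIC5 at the membrane had 4 of 9 measured members lower and 1 higher, against 18.4% and 1.9% of all measured genes. Msn, moesin, had 3601 without and 1298 with CHIR99021, Rhoa, the GTPase that podoplanin activates, 3873 and 1212, and Lgals8, a galectin that binds podoplanin, 354 and 104, while Ezr, ezrin, had 3073 and 1750 and Rdx, radixin, 2836 and 2086. Slc9a3r2, a scaffold that joins these linkers to membrane proteins, had 266 and 73.6, and Podxl, a sialomucin, 447 and 908. Of 8 measured partners of AKAP5, 0 were past 2-fold in either direction on the authors' scale. Of all measured genes 18.4% were lower and 1.9% higher. After median centring 1 partner was higher, against 5.91% of all. The median log2 ratio of the 8 on the authors' scale was 0.07. The catalytic subunit genes of kinase A, Prkaca and Prkacb, had log2 ratios of -0.83 and -0.70, with the other probe set of Prkaca at 0.08, and the calcineurin gene Ppp3ca one of -0.88, with its others at -1.31 and -1.23. By the brightest probe set the remaining 5 were above 0: Adcy5, an adenylyl cyclase, at 0.58 (its other probe sets above the floor at -0.56 and -0.68), Prkar2a at 0.29, Ppp3cb at 0.22, Prkar2b at 0.10 and Adcy6 at 0.03.

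Paralogs differed from gene to gene. Emp1 had 3840 without and 263 with CHIR99021, 14.6-fold lower, and Pmp22, of the same family as Emp2, 1087 and 114, or 9.53-fold, while Emp3 was near the floor with 28.4 and 13.8. Clic3 had 1551 and 143, or 10.8-fold lower. Clic1 had 2633 and 1465, Clic4 715 and 608, and Clic6 1068 and 604, all within 2-fold by the brightest probe set. Other probe sets of Clic4 went in opposite directions, at log2 ratios of -1.32 and 0.99, and the dimmer one of Clic6 was at -1.05. Gprc5c had 195 and 112, and Rtkn 132 and 138. Of 15 measured paralogs 5 were lower and 0 higher, against 18.4% and 1.9% of all measured genes. After loess 4 were lower and 2 higher, against 7.29% and 6.03% of all.

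Of 12 measured genes of the YAP and TEAD pathway, which is known to be needed for type 1 cells, 1 was lower, Tead4 at 45.2 without and 18.9 with CHIR99021, and after loess 0 were, against 18.4% and 7.29% of all measured genes. Yap1 had 1172 and 881 and Wwtr1, which encodes TAZ, 2489 and 1560. The targets Ccn1 had 793 and 577, and Ccn2 968 and 499. Other probe sets of Ccn1 had log2 ratios from -1.33 to -0.65. Of 16 measured lung transcription factors 5 were lower and 2 higher, against 18.4% and 1.9% of all measured genes. After loess 3 were lower, against 7.29% of all, and 2 higher. Gata6 had 1937 and 2165, with other probe sets at log2 ratios of -0.59 and -0.73, and Klf5 1687 and 550. Nkx2-1, the lung identity factor that type 1 and type 2 cells share, was read by a dim probe set, at 52.0 without and below the floor with CHIR99021. Sox2 was below the floor with CHIR99021 and had 285 without, whereas Sox9 had 70.1 and 771 and Sox11 338 and 1039, in that order.

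**Figure D4:**
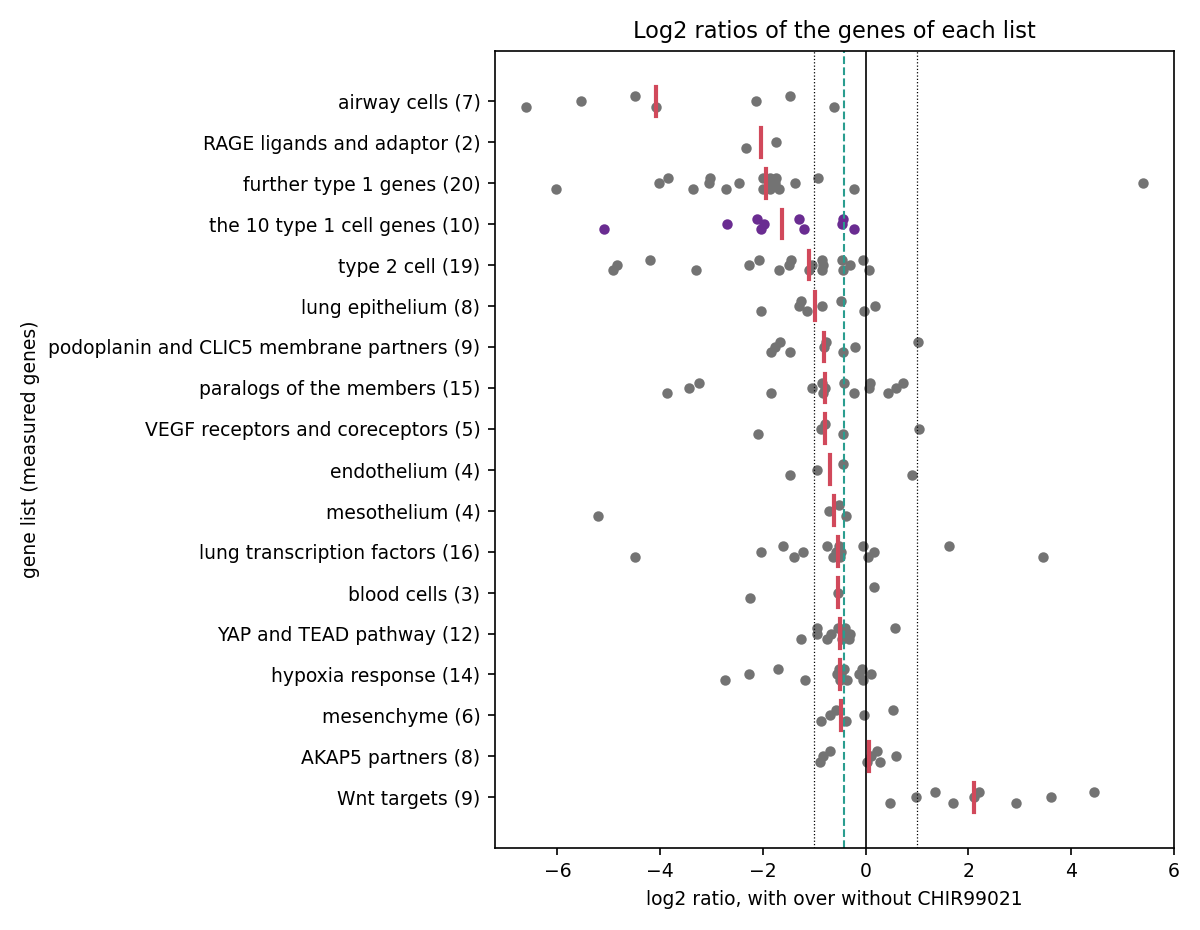
Log2 ratio, with over without CHIR99021, of each measured gene by list, with the number of measured genes in brackets, a red bar at the median of each list, a dashed line at the median of all genes (-0.42) and dotted lines at 2-fold. The 10 type 1 cell genes (purple) have a median of -1.64 and the 20 further type 1 genes one of -1.93, while the Wnt targets lie on the other side with 2.12.

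The labels of the arrays were checked with Wnt targets. At least 2-fold higher with CHIR99021 were 7 of 9 measured, against 1.9% of all measured genes, Axin2 among them with 58.2 and 267. Epithelial identity was checked with 8 genes, of which 4 were at least 2-fold lower with CHIR99021 and 0 higher. Of all measured genes 18.4% were lower and 1.9% higher. After loess 4 were lower, against 7.29% of all, and after median centring 1, against 7.44%. Epcam had 3846 without and 3743 with CHIR99021, and Cdh1 6414 and 3574. The lower ones were Krt8, with 7715 and 3151, Krt18, with 6738 and 2834, Shh, with 5662 and 2557, and the dim Nkx2-1. Actb had 9012 and 8889. Markers of other cell types were read as well. Summed over all 6 mesothelial genes the signal was 529 without and 47.7 with CHIR99021, of which Msln gave 471 without and a value below the floor with it, while Wt1 and Upk3b were below the floor on both. Of 11 endothelial markers 4 were measured, with Pecam1, Cdh5, Prox1 and Lyve1 below the floor on both arrays. Of these 4, 1 was at least 2-fold lower with CHIR99021 and 0 higher, against 18.4% and 1.9% of all measured genes. The lower one was Vwf, with 35.4 without and a value below the floor with CHIR99021. Esam had 75.2 without and 141 with CHIR99021, Cldn5 had 39.0 and 20.2, and Kdr is given above. Of 12 mesenchymal markers 6 were measured, with sums over the list of 490.2 and 408. Of 7 blood cell markers 3 were measured. Cd14, with 177 without and 37.1 with CHIR99021, was the 1 at least 2-fold lower, and 0 were higher. The shares of all measured genes were 18.4% and 1.9%. Of 7 measured airway genes 6 were at least 2-fold lower with CHIR99021, against 18.4% of all measured genes. The median log2 ratio of the 7 was -4.07. The summed signal of the airway list was 3370 without and 131 with CHIR99021. The secretoglobin gene Scgb3a2 gave 1247 of this without CHIR99021 and the cytochrome gene Cyp2f2 591, both below the floor with it, and Aldh1a1 gave 1107 and 65.7. Markers of airway cells and Msln were thus lower on the same array as the type 1 genes. Their part in the values of the type 1 genes was not tested.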

How the data were processed

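RNA of 2 cultures, 1 per condition, was hybridized to Affymetrix arrays after 3' in vitro transcription labelling of 100 ng, per the labels' protocols. The authors deposited linear MAS5 intensities, 1 for every probe set, per the submitters' processing notes, and the version and scaling target of MAS5 are not given in the sources used here. Probe sets were named from the platform annotation, and the Entrez identifiers of all 10 genes carried the same symbols in RefSeq on GRCm38.p6. Of 45101 probe sets, 34945 named 1 gene apart from controls, 932 several and 9160 none.

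Each array's floor was the 95th percentile of its 80 olfactory and vomeronasal receptor probe sets. Lower values were raised to it, so that such a ratio is only a bound. The fold threshold was 2. Genes named beside the 10 were taken from up to 4 per list with the largest absolute log2 ratio, where the higher signal reached at least 2 times that array's floor, and from 19 set in the design; others (Cav2, Cavin1, Lmo7, Tspan8, Vegfb, Hif1a, Ezr, Rdx, Podxl, Emp3, Clic1, Clic4, Clic6, Gprc5c, Rtkn, Ccn1, Klf5, Prkar2a, Prkar2b, Ppp3cb, Adcy6, and genes given as below the floor) were chosen after their values were seen. Members and lists were chosen with earlier results of these data known. Alternatives were 4 scalings (median centring, quantile, loess with span 0.4, and 9 hybridization controls), floors at the 90th and 99th percentile or none, an offset of 16, other probe set choices and folds of 1.5 and 3. The number of arrays, 1 per condition, limits the precision. Python 3.11.15, numpy 2.4.6, pandas 2.3.3, statsmodels 0.14.6 and matplotlib 3.10.9 were used, and the steps were tested on simulated data.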

Additional observations from a re-analysis of the deposited data

How the results depend on the processing

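No paired analysis was possible because each condition had 1 array. The number of the 10 genes at least 2-fold lower ran from 5 (median centring) to 8 (median over probe sets). The shares of all measured genes were then 7.44% and 20.2%. At a 3-fold threshold 5 were lower, against 6.29% of all, and at 1.5-fold 7 were, against 38.7%. The median log2 ratio of the 10 genes ran from -2.01 to -1.16. The number at least 2-fold higher was 0 under every alternative run except that without a floor it was 1, Spock2, at a log2 ratio of 1.57, from signals near background. Leaving out Spock2 was chosen after seeing the data. Single genes moved by more than the SD of 0.557 between probe sets of a gene in 10 recomputed values and by less in 89. Ager reached -2.34 without its _s_at probe set and Akap5 -1.32 with the median over its probe sets. Dim probe sets limit Spock2, and a lone array per condition limits every value.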

Other observations

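Probe sets of Emp2 and Akap5 disagreed more than is usual on these arrays. Both Emp2 probe sets that the annotation ties to the same transcript record had nearly equal signals without CHIR99021, 1519 and 1645, but 436 and 38.5 with it, log2 ratios of -1.80 and -5.42. For Akap5 the log2 ratios of its 3 probe sets ran from -3.47 to -0.45, a range of 3.02. Where a gene had several probe sets that cleared both floors, the median range was 0.60. The cause was not tested.

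Further genes of the second type 1 list also had large differences. Sema3a, a secreted guidance protein listed with the type 1 genes, had 1599 without and 195 with CHIR99021, and its other probe sets had log2 ratios of -4.05 and -4.08. Limch1, an actomyosin regulator, had 611 and 73.4, and Cryab, a small heat-shock protein, 499 and 48.8. All 3 were chosen after their values were seen.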
